A study of Mus musculus with 12 samples.

Results

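The genes described here are 10 mouse glycosyltransferase genes: the sialyltransferases St3gal1, St3gal4, St3gal6, St6gal1, St8sia1 and St8sia4, the branching enzymes Gcnt1, Mgat4a and Mgat5, and the fucosyltransferase Fut7. They were chosen by name, with earlier results of these data known. Each is represented by whichever of its probe sets was brightest on average across the 12 arrays, and 10 of the 18193 genes measured of the series are members. A value is the log2 of a deposited array intensity, a level is the mean of such values in a group ± SD, and a change is the difference between 2 group levels ± SE.

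Glycosyltransferases build sugar chains on proteins and lipids in the Golgi, each adding 1 kind of sugar in 1 linkage. Branching enzymes set how many arms an N-glycan or O-glycan carries, and sialyltransferases and fucosyltransferases cap those arms. On T cells, galectins bind the galactose-rich arms, siglecs bind sialic acid, and selectins bind arms that carry both sialic acid and fucose, so that these enzymes are known for their part in signalling thresholds and homing.

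Gene expression was measured on 12 Affymetrix arrays of total RNA from sorted mouse CD8 T cells. The tumour-infiltrating lymphocytes (TIL) came from tumours of B16F10-GP, a mouse melanoma line injected in the right flank, and were sorted on day 17 to 19. Tim-3+ TIL were sorted as Tim-3+2B4+ PD-1+ (n = 4), and the labels call them exhausted. Tim-3- TIL were sorted as Tim-3-2B4- PD-1+ (n = 3), and the labels call them stem-like. Naive CD8 T cells came from the spleens of naive mice with no tumour (n = 5). All mice were 6 to 8 weeks old, the strain is given as C57bl/c for every group, and no genetic change is named. Tim-3 (Havcr2) and 2B4 (Cd244a) are inhibitory and regulatory receptors, and PD-1 (Pdcd1) is the receptor blocked in checkpoint therapy. TIL were freed by enzyme digestion and a density gradient, steps described for tumours, so that tissue, preparation and cell state cannot be told apart in a comparison with naive cells. Nothing given here says that replicates came from separate animals, so the p-values measure the spread between samples, which may be technical.

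Promoter windows of 5 members are shown, for some of the patterns of change described below. They are the windows of the most upstream annotated start, with 250 bases before to 50 bases after it, from RefSeq with build GRCm38.p6. St6gal1 and St8sia1 fell in Tim-3+ TIL, Mgat5 and St8sia4 were highest in Tim-3- TIL, and Gcnt1 was higher in both TIL groups. Capitals mark every match on either strand to 1 of 7 motifs: GC box GGGCGG, TCF CTTTGA, RUNX TGTGGT, T-box GGTGTGA, ETS CCGGAAG, AP-1 TGAGTCA and E-box CACGTG. Motif matches did not overlap in these 5 windows.
St6gal1, chr16:23224490-23224789, plus strand: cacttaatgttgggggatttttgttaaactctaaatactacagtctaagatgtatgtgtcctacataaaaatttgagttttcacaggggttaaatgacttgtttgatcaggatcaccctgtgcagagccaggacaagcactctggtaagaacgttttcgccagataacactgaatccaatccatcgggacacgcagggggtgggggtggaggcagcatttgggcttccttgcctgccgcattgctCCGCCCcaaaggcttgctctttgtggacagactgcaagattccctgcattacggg
St8sia1, chr6:142964403-142964702, minus strand: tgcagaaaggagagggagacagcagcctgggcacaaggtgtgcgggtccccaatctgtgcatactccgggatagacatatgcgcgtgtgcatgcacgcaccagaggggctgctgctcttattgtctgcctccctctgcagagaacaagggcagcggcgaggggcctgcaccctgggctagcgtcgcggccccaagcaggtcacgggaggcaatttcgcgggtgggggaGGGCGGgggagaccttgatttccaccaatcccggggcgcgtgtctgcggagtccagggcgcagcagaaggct
Mgat5, chr1:127204736-127205035, plus strand: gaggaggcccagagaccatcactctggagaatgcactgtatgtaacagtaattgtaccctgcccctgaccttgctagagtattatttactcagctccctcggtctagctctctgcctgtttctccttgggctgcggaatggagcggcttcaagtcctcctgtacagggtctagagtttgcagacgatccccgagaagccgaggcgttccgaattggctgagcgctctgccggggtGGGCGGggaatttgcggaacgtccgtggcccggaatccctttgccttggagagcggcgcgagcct
St8sia4, chr1:95667545-95667844, minus strand: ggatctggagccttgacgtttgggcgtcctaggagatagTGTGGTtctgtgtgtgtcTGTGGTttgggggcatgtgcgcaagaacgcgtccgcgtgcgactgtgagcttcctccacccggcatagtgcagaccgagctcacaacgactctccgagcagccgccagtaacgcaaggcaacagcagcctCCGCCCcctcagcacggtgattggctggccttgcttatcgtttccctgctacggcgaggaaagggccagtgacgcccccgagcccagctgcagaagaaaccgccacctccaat
Gcnt1, chr19:17372795-17373094, minus strand: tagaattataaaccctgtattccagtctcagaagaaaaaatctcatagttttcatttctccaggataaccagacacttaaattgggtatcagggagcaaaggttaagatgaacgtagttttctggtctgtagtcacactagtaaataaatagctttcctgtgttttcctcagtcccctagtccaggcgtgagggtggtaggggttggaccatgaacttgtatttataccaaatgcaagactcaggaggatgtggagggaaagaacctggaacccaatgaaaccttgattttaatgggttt
The St6gal1 window held a GC box 5 bases before the start, and that of St8sia1 held 1 at 22 bases. The Mgat5 window held a GC box 15 bases before the start. St8sia4 had a GC box at 63 bases and RUNX matches at 211 and 193 bases before the start. The Gcnt1 window held none of the 7 motifs. Among 9 members with windows there were 16 windows, and 8 of the 16 held a GC box, against 35.7% of 32851 windows of all genes. RUNX letters were in 3 of the 16 windows (16.8% of all windows) and TCF letters in 2 (16% of all windows). The T-box, ETS, AP-1 and E-box letters were in 0 of the 16, against 3.98%, 8.86%, 5.2% and 7.15% of all windows.

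The labels were checked against the sort markers. Havcr2 was at 11.66 ± 0.14 in Tim-3+ TIL (SD, n = 4), 7.08 ± 0.49 in Tim-3- TIL (n = 3) and 4.63 ± 0.23 in naive cells (n = 5). Cd244a followed the gates too, at 11.49 ± 0.54, 4.89 ± 0.77 and 4.19 ± 0.30 in the same groups. Pdcd1 was at 11.77 ± 0.17 in Tim-3+ TIL, 11.37 ± 0.09 in Tim-3- TIL and 5.14 ± 0.31 in naive cells. Cd8a lay between 12.61 and 12.95 on all arrays. Cd8b1 was at 11.76 ± 0.14 in Tim-3+ TIL, 11.70 ± 0.12 in Tim-3- TIL and 12.46 ± 0.05 in naive cells. It was thus lower in TIL, with changes against naive cells of -0.70 ± 0.09 in Tim-3+ TIL and -0.76 ± 0.10 in Tim-3- TIL. The arrays fall into 2 sets along the lower and the higher replicate numbers. Set A holds Tim-3+ replicates 1 and 2, Tim-3- replicate 1 and naive replicates 1 and 2, and set B the 7 remaining ones. Differences in log2 value from array to array of a group had an SD of 0.234 to 0.301 within a set and 0.337 to 0.412 across sets. The labels name no batch. The values come with no detection calls, and a level below 5.71, percentile 40 of all genes, is called dim here, since a change against it is at best a lower bound.

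Most members passed the test in each comparison, with more falls than rises. Since the members were chosen with earlier results of these data known, their counts are no test of an excess over all genes. In Tim-3+ against Tim-3- TIL, 6 of the 10 passed an adjusted p of 0.05 (limma with Benjamini-Hochberg adjustment over all 18193 genes, used throughout), against 13.5% of all genes. Of these, 1 rose, against 7.77% of all genes, and 5 fell, against 5.77%. In Tim-3+ TIL against naive cells 7 of 10 passed, against 41.5% of all genes, with 2 rises (20.1% of all genes) and 5 falls (21.4%). In Tim-3- TIL against naive cells 7 of 10 passed, against 34.4% of all genes, with 3 rises (16.1%) and 4 falls (18.3%). No overlap between the arrays of a pair of groups was seen for 6 members in Tim-3+ against Tim-3- TIL (22.7% of all genes), for 6 in Tim-3+ TIL against naive cells (37.3%) and for 7 in Tim-3- TIL against naive cells (35.1%). The median change of the 10 members was -0.56 in Tim-3+ against Tim-3- TIL, where that of all genes was 0.011. Against naive cells the medians were -0.45 in Tim-3+ TIL (all genes -0.066) and -0.18 in Tim-3- TIL (all genes -0.063). These last comparisons share the 5 naive arrays. 5 members passed in all 3 comparisons: St3gal1, St6gal1 and St8sia1 fell in each, Gcnt1 rose in each, and St8sia4 changed in both directions. St3gal4 and St3gal6 passed in none.

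**Figure D1:**
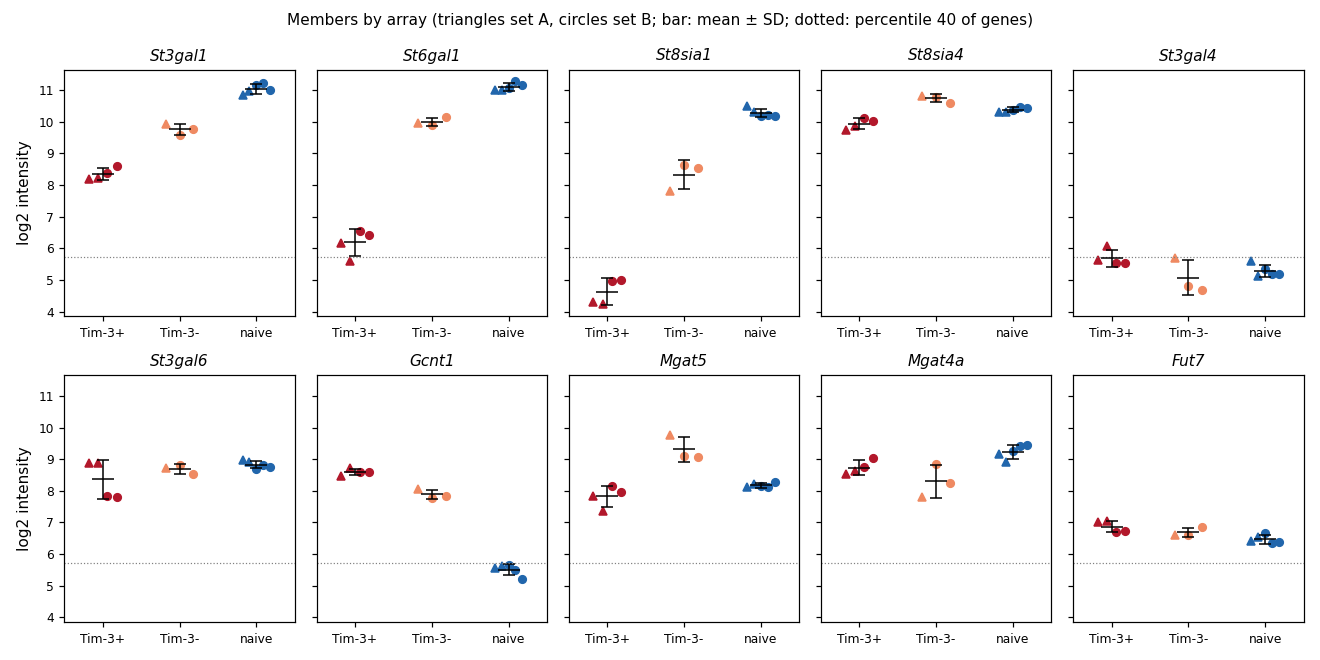
Log2 intensity of the 10 members on every array, with Tim-3+ TIL (n = 4), Tim-3- TIL (n = 3) and naive CD8 T cells (n = 5) from left to right; bars are means ± SD, triangles are arrays of set A, circles arrays of set B, and the dotted line is the dim level of 5.71. St3gal1, St6gal1 and St8sia1 step up from left to right with no overlap between groups, Gcnt1 steps down, and Mgat5 and St8sia4 are highest in Tim-3- TIL.

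St6gal1, which adds sialic acid to the galactose ends of N-glycans and makes the ligand of the siglec CD22, fell in all 3 comparisons. Its values were 6.18, 5.61, 6.55 and 6.42 in Tim-3+ TIL, 9.96, 9.91 and 10.14 in Tim-3- TIL, and 11.02, 11.02, 11.05, 11.30 and 11.15 in naive cells. Every Tim-3+ array lay below every Tim-3- array, and every Tim-3- array below every naive array. The change was -3.82 ± 0.18 in Tim-3+ against Tim-3- TIL (14.1-fold lower, adjusted p = 1.25e-08, limma). It was -4.92 ± 0.16 in Tim-3+ TIL against naive cells (30.3-fold lower, adjusted p = 1.42e-11, limma) and -1.11 ± 0.17 in Tim-3- TIL against naive cells (2.15-fold lower, adjusted p = 0.000164, limma). The Tim-3+ level of 6.19 ± 0.42 was not far above the dim level.

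St8sia1, the GD3 synthase, which adds the sialic acid that turns ganglioside GM3 into GD3, went the same way. Its values were 4.30, 4.24, 4.98 and 5.00 in Tim-3+ TIL, 7.80, 8.65 and 8.55 in Tim-3- TIL, and 10.49, 10.32, 10.18, 10.21 and 10.20 in naive cells. The groups did not overlap, and all 4 Tim-3+ arrays were dim, so the changes against the other groups are at best lower bounds. The change was -3.70 ± 0.22 in Tim-3+ against Tim-3- TIL (13-fold, adjusted p = 1.11e-07, limma) and -5.65 ± 0.20 in Tim-3+ TIL against naive cells (50.2-fold, adjusted p = 2.89e-11). Tim-3- TIL lay -1.95 ± 0.21 from naive cells (3.86-fold lower, adjusted p = 6.98e-06), a distance with both levels above dim.

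St3gal1 caps the galactose of core 1 O-glycans with sialic acid, and in mouse CD8 T cells it is known for masking the peanut agglutinin site on naive cells. Its values were 8.19, 8.21, 8.37 and 8.61 in Tim-3+ TIL, 9.94, 9.59 and 9.77 in Tim-3- TIL, and 10.84, 10.98, 11.18, 11.24 and 11.00 in naive cells. Again no group overlapped with another, and all levels were well above dim. The change was -1.42 ± 0.14 in Tim-3+ against Tim-3- TIL (2.68-fold lower, adjusted p = 8.26e-06, limma). Against naive cells it was -2.70 ± 0.12 in Tim-3+ TIL (6.5-fold lower, adjusted p = 2.81e-10) and -1.28 ± 0.13 in Tim-3- TIL (2.43-fold lower, adjusted p = 3.07e-06). In sorted bulk samples such as these, fewer cells that express a gene and less RNA of it per cell cannot be told apart.

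St8sia4, a polysialyltransferase, moved by less and in another order. Its values were 9.74, 9.88, 10.13 and 10.04 in Tim-3+ TIL, 10.83, 10.79 and 10.60 in Tim-3- TIL, and 10.31, 10.32, 10.39, 10.47 and 10.44 in naive cells. Tim-3- TIL were highest and Tim-3+ TIL lowest, with naive cells between them and no overlap. The change was -0.79 ± 0.11 in Tim-3+ against Tim-3- TIL (adjusted p = 0.000262, limma), -0.44 ± 0.10 in Tim-3+ TIL against naive cells (adjusted p = 0.00218) and 0.35 ± 0.11 in Tim-3- TIL against naive cells (adjusted p = 0.0185). The fall against naive cells was not found on the other St8sia4 probe set, where the change was 0.24 ± 0.14 (adjusted p = 0.208 over 45037 probe sets). The rise of Tim-3- TIL over naive cells was 0.28 with arrays centred on their medians (adjusted p = 0.0567), 0.26 within set B alone (adjusted p = 0.0886), and it also missed the threshold when Tim-3- replicate 1 (adjusted p = 0.068) or replicate 2 (adjusted p = 0.0718) was left out.

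St3gal6 and St3gal4 add sialic acid to the outer galactose of chains that become selectin ligands, and neither passed in the fit by group alone. St3gal6 was at 8.90, 8.89, 7.85 and 7.81 in Tim-3+ TIL, 8.71, 8.82 and 8.53 in Tim-3- TIL, and 8.97, 8.90, 8.70, 8.81 and 8.76 in naive cells. The Tim-3+ arrays split along the sets, with 8.89 for set A and 7.83 for set B, while the means were closer in Tim-3- TIL (8.71 and 8.68) and in naive cells (8.93 and 8.76), where the set A arrays also lay above the set B arrays. The pooled change of Tim-3+ TIL was -0.33 ± 0.24 against Tim-3- TIL (adjusted p = 0.483, limma) and -0.47 ± 0.21 against naive cells (adjusted p = 0.0978). Within set B alone it was -0.85 ± 0.13 against Tim-3- TIL (adjusted p = 0.00418) and -0.93 ± 0.12 against naive cells (adjusted p = 0.000296). Within set A alone it was 0.18 ± 0.13 (adjusted p = 0.472) and -0.040 ± 0.11 (adjusted p = 0.81). When the fit took the array sets as a block, the change was -0.40 (adjusted p = 0.178) against Tim-3- TIL and -0.51 (adjusted p = 0.0205) against naive cells, and with the replicate number as a block the second was -0.48 (adjusted p = 0.0493). A call on St3gal6 in Tim-3+ TIL against naive cells thus depends on how the sets are treated.

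St3gal4 was dim in all 3 groups, at 5.69 ± 0.27 in Tim-3+ TIL, 5.07 ± 0.55 in Tim-3- TIL and 5.29 ± 0.20 in naive cells (SD). Its arrays overlapped in each comparison, and the adjusted p was 0.0853, 0.113 and 0.479 in Tim-3+ against Tim-3- TIL, Tim-3+ TIL against naive and Tim-3- TIL against naive. With the array sets as a block its change in Tim-3+ against Tim-3- TIL was 0.56 (adjusted p = 0.0454). Without Tim-3- replicate 1 its change in Tim-3+ against Tim-3- TIL was 0.94 (adjusted p = 0.00349), that in Tim-3- TIL against naive cells was -0.53 (adjusted p = 0.0291), and that in Tim-3+ TIL against naive cells was 0.41 (adjusted p = 0.0284). That replicate is the only Tim-3- array of set A. Within set B alone the first of these changes was 0.77 (adjusted p = 0.0037, limma) and the second -0.48 (adjusted p = 0.00686). Within set A alone they were 0.15 and 0.34.

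Among the branching enzymes, Gcnt1 was the member that rose most in TIL. Gcnt1 adds the core 2 branch to O-glycans, the arm on which activated mouse T cells build selectin ligands and the CD43 form that marks effector cells. Its values were 8.47, 8.71, 8.58 and 8.60 in Tim-3+ TIL, 8.06, 7.78 and 7.84 in Tim-3- TIL, and 5.55, 5.61, 5.66, 5.50 and 5.21 in naive cells. All TIL arrays were far above all naive arrays, which were dim, and the 4 Tim-3+ arrays lay above the 3 Tim-3- arrays. Against naive cells the change was 3.09 ± 0.11 in Tim-3+ TIL (8.49-fold higher, adjusted p = 2.78e-11, limma) and 2.39 ± 0.12 in Tim-3- TIL (5.23-fold higher, adjusted p = 2.41e-09), in both cases at best a lower bound. Tim-3+ TIL exceeded Tim-3- TIL by 0.70 ± 0.12 (adjusted p = 0.00151), and within set A alone, where Tim-3- TIL have 1 array, by 0.53 ± 0.16 (adjusted p = 0.103).

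Mgat5 adds the N-glycan branch that carries most galectin ligands, and mouse T cells that lack it are known for a lower activation threshold. Its values were 7.85, 7.38, 8.15 and 7.95 in Tim-3+ TIL, 9.77, 9.09 and 9.08 in Tim-3- TIL, and 8.12, 8.20, 8.14, 8.12 and 8.27 in naive cells. Every Tim-3- array lay above every array of the other groups, and the highest Tim-3+ array reached into the naive range. Tim-3+ TIL were lower than Tim-3- TIL by a change of -1.48 ± 0.19 (2.8-fold, adjusted p = 9.99e-05, limma), and Tim-3- TIL were higher than naive cells by 1.15 ± 0.18 (2.21-fold, adjusted p = 0.000154). The change of Tim-3+ TIL against naive cells was -0.34 ± 0.16 (adjusted p = 0.116), and did not pass.

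Mgat4a adds a different N-glycan arm, and it was lower in Tim-3- TIL than in naive cells. Its values were 8.52, 8.63, 8.76 and 9.04 in Tim-3+ TIL, 7.80, 8.84 and 8.25 in Tim-3- TIL, and 9.15, 8.91, 9.25, 9.40 and 9.47 in naive cells. The 3 Tim-3- arrays were spread over about 1 log2 unit, yet all lay below the lowest naive array. The change was -0.94 ± 0.20 in Tim-3- TIL against naive cells (adjusted p = 0.00214, limma). In Tim-3+ TIL against naive cells it was -0.50 ± 0.19 (adjusted p = 0.0436), the arrays overlapped, and the call was lost in 8 of the 12 fits that left out 1 array (highest adjusted p = 0.115, without Tim-3+ replicate 1) and with the replicate number as a block (adjusted p = 0.0668). Between the TIL groups the change was 0.44 ± 0.21 (adjusted p = 0.22), which did not pass. It did pass without Tim-3- replicate 2 (0.71, adjusted p = 0.0318), with the array sets as a block (0.51, adjusted p = 0.0293) and within set A alone (0.78, adjusted p = 0.0429).

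Fut7, which adds the fucose that completes sialyl Lewis x on selectin ligands, changed little. Its values were 7.01, 7.04, 6.71 and 6.73 in Tim-3+ TIL, 6.60, 6.62 and 6.85 in Tim-3- TIL, and 6.41, 6.56, 6.68, 6.34 and 6.38 in naive cells. The Tim-3+ arrays were all above the naive arrays, by a narrow margin, and the Tim-3- arrays overlapped with both. The change in Tim-3+ TIL against naive cells was 0.40 ± 0.11 (1.32-fold higher, adjusted p = 0.0089, limma), and 0.25 ± 0.13 within set B alone (adjusted p = 0.182). The change was 0.18 ± 0.12 against Tim-3- TIL (adjusted p = 0.429) and 0.22 ± 0.12 in Tim-3- TIL against naive cells (adjusted p = 0.189), and neither passed.

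**Figure D2:**
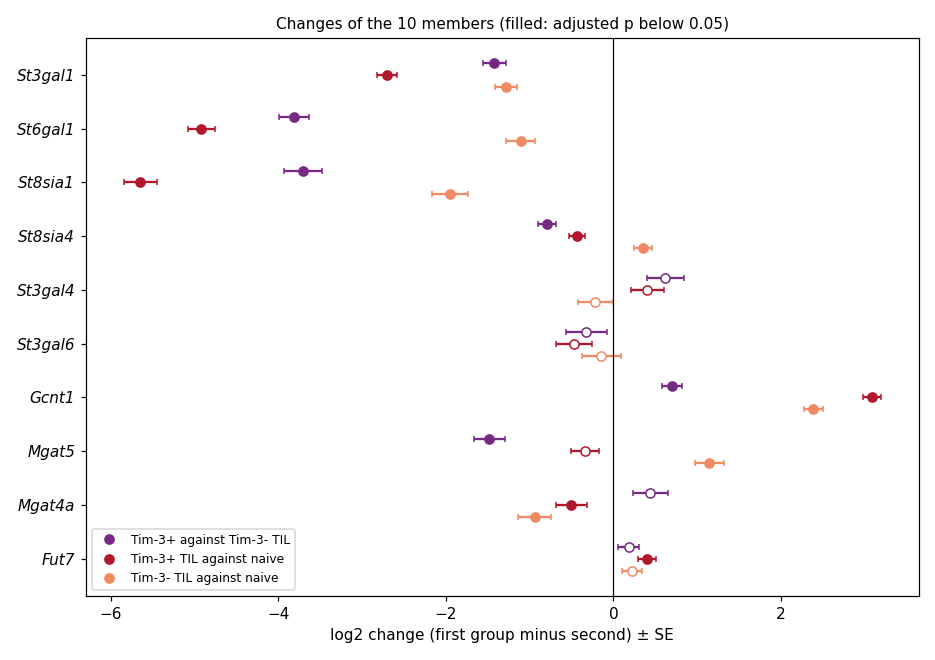
Log2 changes ± SE of the 10 members in the 3 comparisons, with Tim-3+ against Tim-3- TIL above, Tim-3+ TIL against naive cells in the middle and Tim-3- TIL against naive cells below within each gene; filled points passed adjusted p 0.05. St8sia1 and St6gal1 have the largest falls (-5.65 and -4.92 in Tim-3+ TIL against naive cells) and Gcnt1 the largest rise (3.09).

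Within the array sets, all 20 member calls kept their sign in both sets. In set A 19 of the 20 passed, and in set B 17 of the 20. St6gal1 in Tim-3+ against Tim-3- TIL changed by -4.07 ± 0.24 within set A and by -3.54 ± 0.13 within set B, and St8sia1 was -3.53 ± 0.15 and -3.61 ± 0.10. For St3gal1 the values were -1.74 ± 0.14 for set A and -1.19 ± 0.14 for set B, and for Mgat5 they were -2.16 ± 0.22 and -1.04 ± 0.12. The changes of these 4 genes had the same sign in both sets. Those of set A rest on 1 Tim-3- array, which is assumed there to vary like the arrays of the other groups.

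A total of 23 probe sets named a member, and none of them named another gene as well. St3gal4 and Fut7 had 1 each, and the other 8 members had 2 to 5. Of the other probe sets of called members, 8 of 8 were called the same way in Tim-3+ against Tim-3- TIL, 6 of 7 in Tim-3+ TIL against naive cells and 9 of 9 in Tim-3- TIL against naive cells. The exception was St8sia4, as given above. Both other probe sets of Mgat5 put Tim-3- TIL highest, at 8.65 and 7.44, against 7.04 and 6.18 in Tim-3+ TIL and 7.27 and 6.60 in naive cells. Probe sets differ in how far apart they place the groups: the second Gcnt1 probe set read 9.33 in Tim-3+ TIL, 8.67 in Tim-3- TIL and 3.06 in naive cells, so that its change against naive cells was 6.27 ± 0.13 in Tim-3+ TIL and 5.61 ± 0.14 in Tim-3- TIL. The St8sia1 probe set with the widest span read 3.75 in Tim-3+ TIL, 8.29 in Tim-3- TIL and 10.40 in naive cells. Another St3gal6 probe set was lower than in naive cells by changes of -0.71 ± 0.22 in Tim-3+ TIL (adjusted p = 0.0186 over all probe sets) and -0.67 ± 0.24 in Tim-3- TIL (adjusted p = 0.0439). Fold sizes of the members are thus those of the probe set used. The order of the 3 groups was the same on every probe set of St3gal1, St6gal1, St8sia1, Gcnt1 and Mgat5. The other St8sia4 probe set put naive cells lowest (9.59, with 9.83 in Tim-3+ TIL and 10.41 in Tim-3- TIL). Mgat4a read 8.14 in Tim-3+ TIL and 8.16 in Tim-3- TIL on its other probe set, and the St3gal6 probe sets differed in order.

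**Figure D3:**
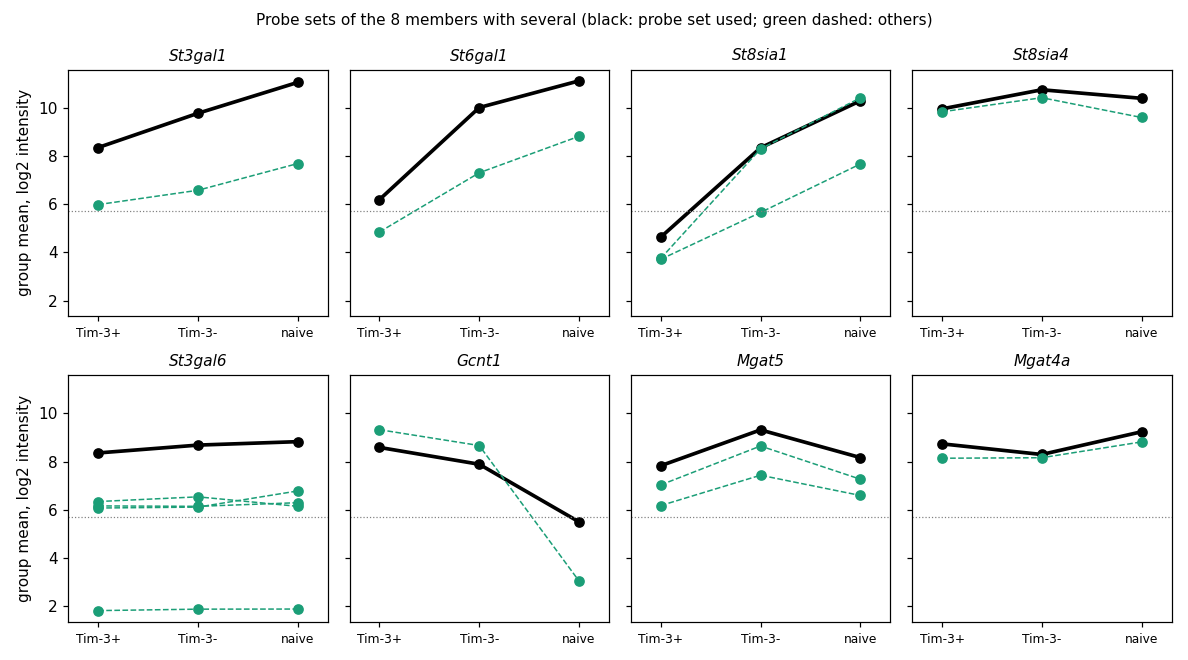
Group means of every probe set of the 8 members that have several, in log2 intensity, with Tim-3+ TIL, Tim-3- TIL and naive cells from left to right; black lines are the probe sets used, green dashed lines the others, and the dotted line is the dim level. Lines of a gene run alike for St3gal1, St6gal1, St8sia1 and Mgat5, while the 5 St3gal6 probe sets (the used one at 8.36, 8.69 and 8.83) do not share an order.

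The other genes of these pathways were read from 9 lists, and values for 104 of their genes are used here. In Tim-3+ against Tim-3- TIL 10 of the 104 rose, against 7.77% of all genes, and 9 fell, against 5.77%. In Tim-3+ TIL against naive cells 26 rose (20.1% of all genes) and 27 fell (21.4%). In Tim-3- TIL against naive cells 25 rose (16.1% of all genes) and 28 fell (18.3%). The counts of each list below are to be read beside these shares of all genes. The other 85 did not pass between the TIL populations, and the median change of the 104 there was 0.050. Against naive cells the medians were -0.090 in Tim-3+ TIL and -0.071 in Tim-3- TIL.

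Of the sialyltransferase members, St3gal1, St6gal1, St8sia1 and St8sia4 fell in Tim-3+ against Tim-3- TIL, and 14 other sialyltransferases were measured. In Tim-3+ against Tim-3- TIL 1 of 14 rose and 0 fell, with a median change of 0.0052. St3gal3 was the 1 that rose, at 7.63 ± 0.14 in Tim-3+ TIL and 6.94 ± 0.15 in Tim-3- TIL (change 0.69 ± 0.14, adjusted p = 0.00366, limma), and within set A alone the adjusted p was 0.0803. Against naive cells there were 5 rises and 1 fall among Tim-3+ changes, and 4 rises and 1 fall among Tim-3- changes. The largest rise was that of St6galnac3, a sialyltransferase of O-glycans and gangliosides, at 8.72, 8.83, 8.12 and 7.97 in Tim-3+ TIL, 9.21, 7.94 and 8.29 in Tim-3- TIL and 5.07, 4.76, 5.97, 5.07 and 6.02 in naive cells. No TIL array overlapped with a naive array, and the change was 3.03 in Tim-3+ TIL (adjusted p = 1.99e-06) and 3.10 in Tim-3- TIL (adjusted p = 6.16e-06), against a dim naive level. Over the other settings these changes ranged between 1.98 and 3.86 in Tim-3+ TIL and between 2.25 and 4.30 in Tim-3- TIL. St6galnac4 rose by 1.37 in Tim-3+ TIL and 1.13 in Tim-3- TIL, and St6galnac6 by 1.17 and 1.08. St3gal5, the GM3 synthase that makes the substrate of St8sia1, rose by 0.70 in Tim-3+ TIL and 0.46 in Tim-3- TIL. St8sia6 fell, with changes of -0.87 and -0.60, at dim levels in all groups. The Tim-3- change of St3gal5 was 0.18 to 0.58 over the settings and lost its call with the mean of its probe sets and within set A. That of St8sia6 was -1.05 to -0.43 and lost its call within either array set alone. Set A holds 1 Tim-3- array.

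Among the 9 measured genes of sialic acid supply and removal, 0 rose and 1 fell in Tim-3+ against Tim-3- TIL. The gene that fell was Cmah, which turns the acetyl form of activated sialic acid into the glycolyl form, and it followed the order of St6gal1 and St8sia1. Cmah was at 4.96, 5.43, 5.71 and 5.94 in Tim-3+ TIL, 9.46, 8.97 and 9.22 in Tim-3- TIL and 11.34, 11.42, 11.16, 11.40 and 11.42 in naive cells. The groups were separate, with a change of -3.71 in Tim-3+ against Tim-3- TIL (adjusted p = 2.68e-08, limma), -5.84 in Tim-3+ TIL against naive cells and -2.13 in Tim-3- TIL against naive cells. Its Tim-3+ level was dim, and with the mean of its probe sets the first 2 changes were -2.44 and -4.58. Against naive cells the sialidase gene Neu1 fell, at 7.03 ± 0.21 in Tim-3+ TIL, 7.31 ± 0.31 in Tim-3- TIL and 8.53 ± 0.19 in naive cells, with changes of -0.57 and -0.50 with the mean of its probe sets. Gne, the entry enzyme of sialic acid synthesis, fell too, with changes of -0.61 in Tim-3+ TIL and -0.90 in Tim-3- TIL. Nans, the sialic acid synthase, rose by 0.94 and 0.81, the second at 0.28 (adjusted p = 0.277) with its most variable probe set. Slc35a1, the carrier of activated sialic acid into the Golgi, and Nanp changed by -0.36 (adjusted p = 0.0283) and -0.55 (adjusted p = 0.0452) in Tim-3- TIL against naive cells, and each lost its call under 7 or more of the 25 other settings tried. Leaving out Tim-3- replicate 2 or 3 or naive replicate 4 or 5 ended that of Slc35a1 (highest adjusted p of all settings 0.55). Leaving out Tim-3+ replicate 4, Tim-3- replicate 1 or naive replicate 2, 3, 4 or 5 ended that of Nanp (highest adjusted p 0.248). The list had 1 rise and 3 falls in Tim-3+ TIL, and 1 rise with 5 falls in Tim-3- TIL.

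**Figure D4:**
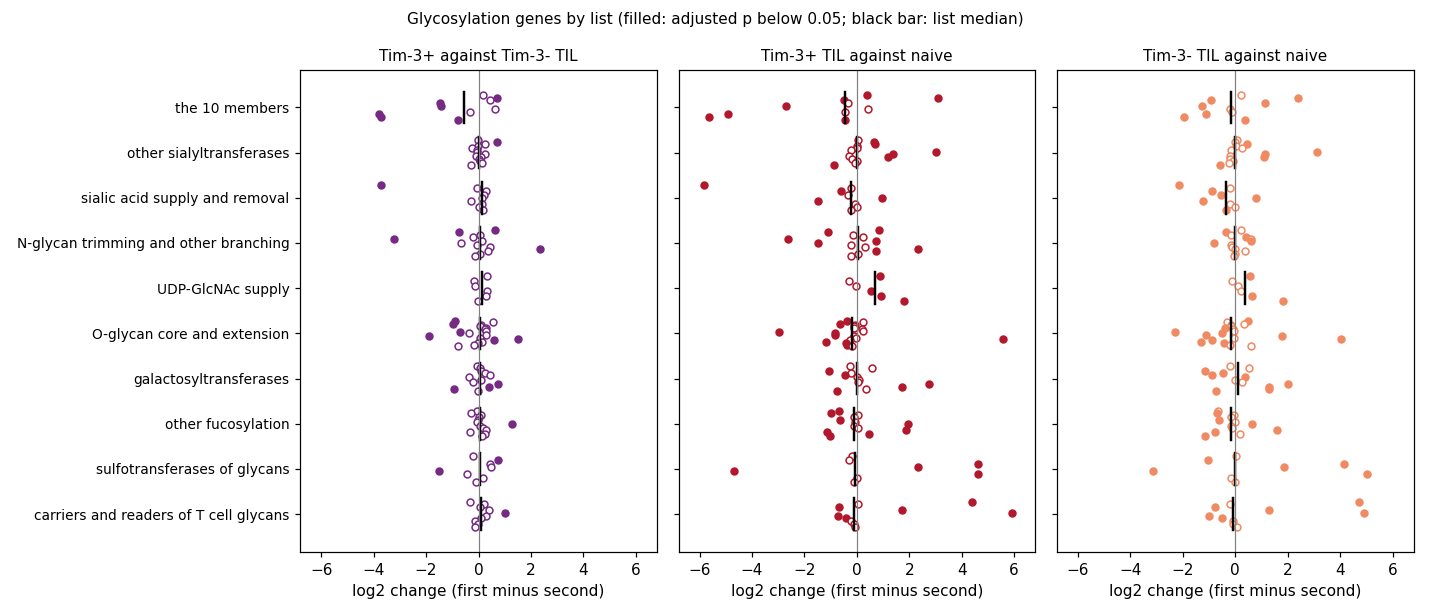
Log2 change of each gene of the 10 members and of the 9 lists in Tim-3+ against Tim-3- TIL, Tim-3+ TIL against naive cells and Tim-3- TIL against naive cells, from left to right; filled points passed adjusted p 0.05 and black bars are list medians. In the left panel the members' median lies at -0.56, and the medians of the 9 lists lie between 0.0052 and 0.13.

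N-glycan trimming and branching genes other than the members were split between the TIL populations, with 2 of 13 up and 2 down in Tim-3+ against Tim-3- TIL. Mgat3 adds the bisecting residue, which in biochemical assays blocks later branching by enzymes such as Mgat5. It was at 7.44, 7.85, 7.32 and 7.04 in Tim-3+ TIL, 5.59, 4.62 and 5.03 in Tim-3- TIL and 5.25, 5.24, 4.98, 4.94 and 5.03 in naive cells. The Tim-3+ arrays were apart from all others, which were dim, with a change of 2.34 against Tim-3- TIL (adjusted p = 5.4e-06, limma) and 2.32 against naive cells (adjusted p = 1.69e-07). With the mean of its probe sets the second change was 1.44. Man1c1, a Golgi mannosidase, was at a dim 4.74 ± 0.40 in Tim-3+ TIL, 7.95 ± 0.31 in Tim-3- TIL and 7.35 ± 0.59 in naive cells. Its change in Tim-3+ against Tim-3- TIL was -3.22 (adjusted p = 8.49e-06, limma), at best a lower bound. Man1a, of the same family, fell in Tim-3+ TIL, with changes of -0.74 against Tim-3- TIL and -1.10 against naive cells. Against naive cells, Tim-3+ TIL showed 4 rises and 3 falls among the 13, and Tim-3- TIL 2 of each, among them Man2a1 with a rise of 0.72 and Man2a2 with a change of -1.47 in Tim-3+ TIL.

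The donor that Mgat5, Mgat4a and Gcnt1 share is UDP-GlcNAc, and none of the 6 genes of its supply passed between the TIL populations, with 0 rises and 0 falls. Against naive cells 4 rose in Tim-3+ TIL and 3 in Tim-3- TIL, and none fell. Uap1, which makes UDP-GlcNAc, rose by 1.80 in Tim-3+ TIL and 1.83 in Tim-3- TIL. Gfpt1, the entry enzyme of the hexosamine pathway, rose by 0.86 and 0.55, and the Golgi carrier Slc35a3 by 0.93 and 0.65.

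Of the 19 genes of O-glycan cores and extension, 2 rose and 4 fell in Tim-3+ against Tim-3- TIL, 1 rose and 8 fell in Tim-3+ TIL against naive cells, and there were 3 rises and 7 falls in Tim-3- TIL against naive cells. Galnt3, an enzyme that starts O-glycans, was at 9.79 ± 0.24 in Tim-3+ TIL, 8.27 ± 0.19 in Tim-3- TIL and a dim 4.23 ± 0.32 in naive cells. Its change was 1.51 between the TIL populations (adjusted p = 8.78e-05, limma), 5.56 in Tim-3+ TIL against naive cells and 4.05 in Tim-3- TIL against naive cells, the same order as Gcnt1. With the mean of its probe sets the changes against naive cells were 3.19 and 1.96. Galnt10, of the same family, fell against naive cells, with changes of -2.99 in Tim-3+ TIL and -2.28 in Tim-3- TIL, as did Galnt6, with -1.18 and -1.32. Galnt14 was at a dim 4.02 ± 0.25 in Tim-3+ TIL, 5.90 ± 0.70 in Tim-3- TIL and a dim 4.11 ± 0.21 in naive cells. It was lower in Tim-3+ than in Tim-3- TIL by a change of -1.89 (adjusted p = 0.000192, limma), at best a lower bound. B3gnt2, which extends chains with the repeats that Mgat5 branches carry, was at 10.65 ± 0.19 in Tim-3+ TIL, 11.54 ± 0.04 in Tim-3- TIL and 11.03 ± 0.06 in naive cells (change -0.89 in Tim-3+ against Tim-3- TIL, adjusted p = 7.47e-05).

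The galactosyltransferases gave 2 rises and 1 fall among 12 genes in Tim-3+ against Tim-3- TIL, 2 rises and 3 falls in Tim-3+ TIL against naive cells and 4 rises and 4 falls in Tim-3- TIL against naive cells. The fall between the TIL populations was that of B4galt6 (-0.93, adjusted p = 0.0015, limma), which was lost within set A. B4galt6 was dim in Tim-3+ TIL (5.14) and in naive cells (4.79), and rose by 1.28 in Tim-3- TIL against naive cells. Neither rise between the TIL populations was kept under every setting. That of B4galt4 (0.74, adjusted p = 0.0151) was lost without Tim-3- replicate 2 and within set A (highest adjusted p 0.103). That of B4galt5 (0.41, adjusted p = 0.0437) was lost in 10 of 25 settings, among them without any 1 of the 4 Tim-3+ arrays, Tim-3- replicate 1 or 2 or naive replicate 2 (highest adjusted p 0.187). B4galt5, which makes lactosylceramide, the precursor of the gangliosides, rose by 1.70 in Tim-3+ TIL and 1.29 in Tim-3- TIL against naive cells, and B4galt4 by 2.76 and 2.02 over a dim 4.13, at best lower bounds, while B3galt4, a ganglioside enzyme, fell, with changes of -1.07 and -1.15. Of 13 other fucosylation genes, 1 rose and 0 fell in Tim-3+ against Tim-3- TIL, 3 rose and 5 fell in Tim-3+ TIL against naive cells, and there were 2 rises and 4 falls in Tim-3- TIL against naive cells. Fut4, which with Fut7 makes fucosylated selectin ligands, was at 6.43 ± 0.25 in Tim-3+ TIL, 5.14 ± 0.47 in Tim-3- TIL and 4.49 ± 0.23 in naive cells. It rose by 1.29 in Tim-3+ against Tim-3- TIL (adjusted p = 0.000785, limma), with the lower groups dim. Gmds, the first enzyme of GDP-fucose synthesis, rose by 1.87 in Tim-3+ TIL and 1.58 in Tim-3- TIL against naive cells, while the GDP-fucose carrier Slc35c1 fell, with changes of -1.01 and -1.16. Pofut1 fell too, with changes of -1.13 in Tim-3+ TIL and -0.78 in Tim-3- TIL, and the second lost its call within set A.

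Of the 8 sulfotransferases, 1 rose and 1 fell between the TIL populations, 3 rose and 1 fell in Tim-3+ TIL against naive cells, and there were 3 rises and 2 falls in Tim-3- TIL against naive cells. The rise was that of Chst10 (0.74, adjusted p = 0.0317), whose arrays overlapped. It was lost in 8 of 25 settings, among them without Tim-3+ replicate 1, 2 or 3 or Tim-3- replicate 1 or 2 (highest adjusted p 0.419). Chst2, which sulfates GlcNAc, was at 11.69 ± 0.21 in Tim-3+ TIL, 12.11 ± 0.22 in Tim-3- TIL and 7.07 ± 0.22 in naive cells, with changes against naive cells of 4.61 and 5.04, which were 1.78 and 1.92 with the mean of its probe sets. Chst11 was at 9.65 ± 0.14 in Tim-3+ TIL, 9.22 ± 0.16 in Tim-3- TIL and a dim 5.05 ± 0.39 in naive cells. Its changes against naive cells, 4.60 and 4.17, are at best lower bounds, and both calls were kept under all 25 settings. Chst15, which sulfates chondroitin, was dim in Tim-3+ TIL (5.59 ± 0.39), so that its changes there are at best lower bounds. It fell, with changes of -4.67 in Tim-3+ TIL and -3.15 in Tim-3- TIL against naive cells, and -1.52 in Tim-3+ against Tim-3- TIL (adjusted p = 6.63e-05, limma). Among 10 carriers and readers of T cell glycans, 1 rose and 0 fell between the TIL populations, and 3 rose and 3 fell in each TIL population against naive cells. Lgals3, a galectin that binds Mgat5-branched N-glycans, was at 10.37 ± 0.22 in Tim-3+ TIL, 9.37 ± 0.32 in Tim-3- TIL and a dim 4.45 ± 0.28 in naive cells. Lgals1 rose against naive cells by 1.71 in Tim-3+ TIL and 1.30 in Tim-3- TIL. Cd44 rose by 4.39 and 4.72 in the same comparisons. Levels of the galectins Lgals8 (9.19, 8.89 and 9.89) and Lgals9 (9.54, 9.45 and 9.95) were lower in both TIL groups than in naive cells, in the same order of groups. Both were named after their values were seen.

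**Figure D5:**
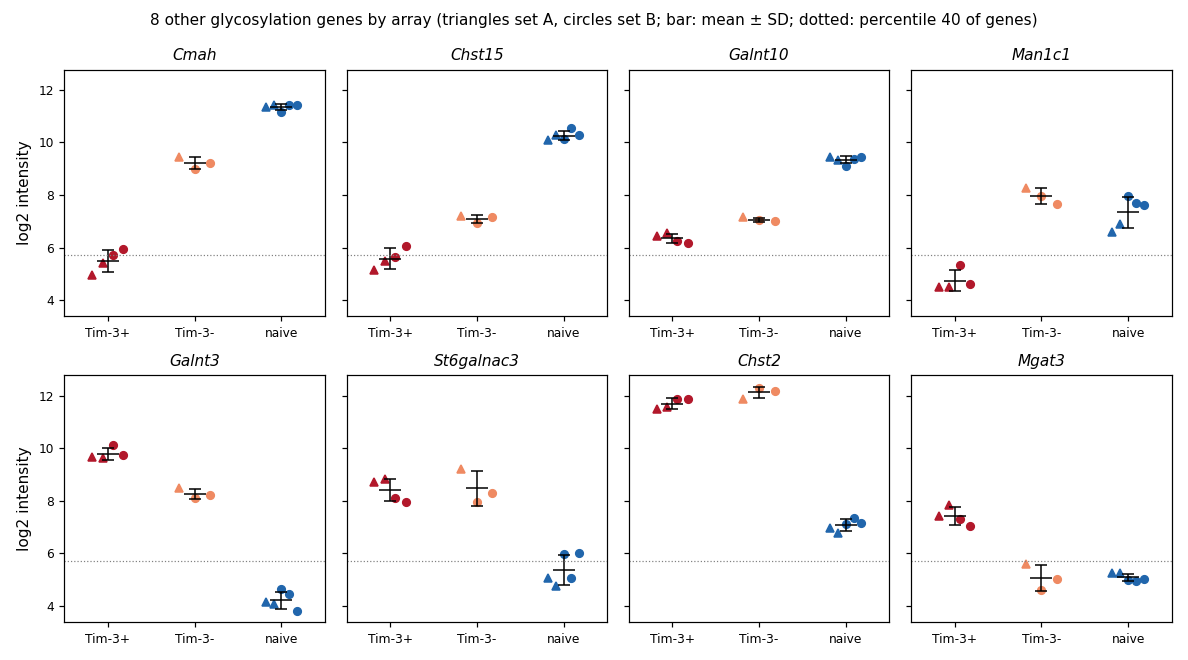
Log2 intensity on every array of 8 genes of the lists, with Tim-3+ TIL (n = 4), Tim-3- TIL (n = 3) and naive cells (n = 5) from left to right; bars are means ± SD, triangles set A, circles set B and the dotted line the dim level of 5.71. Cmah steps up from left to right as St6gal1 and St8sia1 do, and Mgat3 is above 7 in Tim-3+ TIL alone, with all other arrays at 5.59 or lower.

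The genes whose profile over the 12 arrays was nearest to a member's were found by the root mean square difference of log2 values after each gene was centred on its mean. St8sia1 had Tdrp (0.262), Cmah (0.331) and St6gal1 (0.460) nearest, and its own root mean square about its mean was 2.46. For St6gal1 they were St8sia1 (0.460), Tnfrsf22 (0.471) and Slamf6 (0.519), with 2.18 about its mean. St3gal1 was nearest to Sema4b (0.147), Id3 (0.202) and Cd72 (0.206), with 1.17 about its mean. Slamf6 and Id3 are genes known as high in stem-like CD8 T cells. St6gal1 and St3gal1, whose profiles they were near, were highest in naive cells rather than in Tim-3- TIL. Gcnt1 was nearest to Ehd4 (0.200), Cenpa (0.206) and Atxn1 (0.210), with 1.40 about its mean. Mgat5 was nearest to Mctp1 (0.217), Adk (0.238) and Cbfa2t3 (0.242), and St8sia4 to B3gnt2 (0.0964), Pan3 (0.117) and Phc2 (0.118), with 0.625 and 0.322 about their means. The other 4 members varied by 0.219 to 0.466 about their means. Of these, St3gal4 had Ss18l2, Alg3 and Tbc1d8b, St3gal6 had Malt1, Zfp36l2 and Impact, Mgat4a had Slc30a4, Kdm8 and Exo5, and Fut7 had Tmem160, Vps35 and Nmd3. All these genes share the 12 arrays and their groups.

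Markers of other cells moved with some of these changes, and their part in them was not tested. The summed linear intensity of 6 B cell markers was 207 to 230 in Tim-3+ TIL, 241 to 258 in Tim-3- TIL and 596 to 795 in naive cells, the order in which St3gal1, St6gal1 and St8sia1 ran, St6gal1 being known as high in B cells. Most of the sum in naive cells was Cd79b, whose level was 5.59 ± 0.15 in Tim-3+ TIL, 6.37 ± 0.21 in Tim-3- TIL and 8.89 ± 0.15 in naive cells, with Cd79a at 5.75 ± 0.12, 5.66 ± 0.20 and 6.63 ± 0.25. The other 4, among them Ms4a1 at 3.27, 3.27 and 3.70 and Pax5 at 5.69, 5.52 and 5.70 in the same groups, were dim in every group (these 2 were named after their values were seen). Of 6 melanoma markers, 4 rose and 1 fell in Tim-3+ TIL against naive cells and 2 rose with 1 fall in Tim-3- TIL against naive cells, beside the rises of Gcnt1 there. Their summed intensity was 219 to 1068 in Tim-3+ TIL, 311 to 567 in Tim-3- TIL and 324 to 435 in naive cells. Dct was at 8.28, 4.92, 7.85 and 6.97 in Tim-3+ TIL, at 5.72, 6.07 and 7.19 in Tim-3- TIL and at 3.59 to 4.48 in naive cells, and Pmel was at 6.81 ± 0.49, 7.17 ± 0.26 and 8.05 ± 0.30. Beside the high Mgat5 of Tim-3- TIL, 4 markers of CD4 and regulatory T cells summed to 480 to 510 in Tim-3+ TIL, 579 to 624 in Tim-3- TIL and 350 to 396 in naive cells, with Foxp3 at 6.93 ± 0.16, 7.94 ± 0.09 and 7.09 ± 0.18 and Cd4 at 7.50 ± 0.11, 7.34 ± 0.18 and 6.51 ± 0.20. The NK cell list summed to 810 to 1096, 1693 to 1845 and 371 to 470 in these groups. Nearly all of that was Eomes, also a CD8 T cell gene, at 9.82 ± 0.19, 10.79 ± 0.07 and 8.61 ± 0.15, and the other 2 genes were dim in every group. The monocyte and macrophage markers summed to 333 to 468, 461 to 527 and 297 to 378 in these groups, 6 of the 8 being dim in each. Sums of the dendritic cell list (297 to 342, 296 to 320 and 2716 to 3267) were set in naive cells by Ccr9, at 11.39 ± 0.10, and those of the fibroblast and endothelium list (317 to 377, 520 to 547 and 998 to 1270) by Pecam1, at 9.77 ± 0.18, both also known on naive T cells. The CD8 T cell list summed to 24762 to 29262, 22971 to 25746 and 27160 to 30389. The neutrophil and erythroid sums were 62 to 147 and 57 to 90 over all arrays.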

How the data were processed

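Total RNA of 12 samples of sorted mouse CD8 T cells was hybridised to Affymetrix arrays. The deposited table holds a linear intensity for each of 45101 probe sets, made by the authors with RMA in the affy package, per the submitters' processing notes; no version, and no word on whether all arrays were normalized together, is given in the sources used here. Median intensities of the arrays were 58.8 to 63.0, and the number of arrays limits the precision. Here the log2 of each deposited intensity was taken with no further scaling. After 64 array controls were left out, 34945 probe sets named 1 gene, 932 several and 9160 none in the platform annotation, whose symbols needed no update against RefSeq (34741 matched by gene ID). Each of 18193 genes took its single-gene probe set with the highest mean.

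A fit of 3 group means with limma 3.58.1 (R 4.3.3, lmFit and eBayes, two-sided) was adjusted over all genes, with a call at adjusted p below 0.05. Tables and figures used Python 3.11.15, numpy 2.4.6, pandas 2.3.3 and matplotlib 3.10.9. The fit was also run on simulated data with independent noise and no array sets, which says nothing on the effect of the sets. The members and lists were chosen with earlier results of these data known. Beside the members, the genes named were up to 3 per pathway list and comparison with the smallest adjusted p, and every called gene of the first 2 lists. The sort markers and the 3 nearest profiles per member were named too. Of the lists of other cells, genes among the 2 brightest were named for some lists only.

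Whether replicate numbers pair the samples is not settled here. Of 10 same-number pairs, 8 had a correlation of deviations above 0.1, with a range of -0.15 to 0.41. In 7 of 20 comparisons the correlation was highest for the own number. Numbers and array sets are out of step, since replicate 2 is in set A for Tim-3+ TIL and in set B for Tim-3- TIL. The 25 other settings were 12 that left out an array and 13 that changed the probe set, scaling, filter, fit, block or array set.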

Additional observations from a re-analysis of the deposited data

Results flagged for a closer look

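In 3 of 100 groups of 4 or 5 arrays tested, 1 array lay far from the others of its group, and chance gives such an array in about 1 of 20 groups. St3gal4 was at 6.09 in Tim-3+ replicate 2, the highest of the 4 arrays, with the nearest other array at 5.62. B3galt4 was at 6.69 in Tim-3+ replicate 4, the lowest of the 4, with the nearest other at 6.83. Man1c1 was at 5.34 in Tim-3+ replicate 3, the highest of the 4, with the nearest other at 4.61. No explanation of these values was tested.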

How the results depend on the processing

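Of the 30 member results, 17 kept their direction and side of the threshold under all 25 other settings, and 15 of the 20 member calls were kept under each. The cause was not tested for those that moved. The sign turned for St3gal6 in Tim-3+ against Tim-3- TIL within set A (0.18), for Fut7 in the same comparison within set B (-0.014), for St8sia4 in Tim-3+ TIL against naive cells with the most variable probe set (0.24), and for St3gal4 in Tim-3- TIL against naive cells within set A (0.34). St8sia4 in Tim-3+ TIL against naive cells also lost its call with the mean of probe sets (-0.10, adjusted p = 0.39, limma), and Mgat4a there within set B (-0.47, adjusted p = 0.0685). With fewer arrays, 1590 genes passed in Tim-3+ against Tim-3- TIL within set A, where 2463 passed over all arrays. With the replicate number as a block, 2750, 7681 and 6415 genes passed in Tim-3+ against Tim-3- TIL, Tim-3+ TIL against naive cells and Tim-3- TIL against naive cells. Of the member calls, the block ended that of Mgat4a in Tim-3+ TIL against naive cells (-0.44, adjusted p = 0.0668). Changes against dim groups are limited by background signal, which no detection call measures here.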
